A study of Mus musculus with 800 samples.

Results

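Eomes-positive and Eomes-absent cells were compared among the labelled retinal ganglion cells (RGCs) of mouse embryos at day E15.5. Eomes (Tbr2) is a T-box transcription factor that marks a set of RGC types in the retina, the melanopsin-bearing ones among them. Cells were taken from the Tomato+ group of Sert-Cre retinas. They were kept with at least 1000 detected genes, at most 20% of counts in mitochondrially encoded (mt-) genes and fewer than 100 counts of Hbb-y, an embryonic globin of red blood cells. Cells with 5 or more Eomes counts formed the Eomes-positive side and cells with 0 Eomes counts the Eomes-absent side, which made up 36.6% and 44.1% of the 320 Tomato+ cells within these limits. The 62 cells with 1 to 4 Eomes counts and 7 cells past the Hbb-y limit were left out. In all, 400 of the 800 cells of the series were Tomato+. The members were chosen by their Eomes counts, so the values of Eomes are a description, and every difference in another gene is one between cells split by Eomes.

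All cells came from retinas of C57BL/6 background at E15.5, pooled from 30 retinas before flow sorting, and were prepared as SmartSeq2 libraries on the C1 system. Sert-Cre drives Cre recombinase from Slc6a4, the gene of the serotonin transporter, so the Tomato+ cells of both sides share the same label and the same driver. The other 400 cells of the series are Tomato-. The reporter allele, the sorting gate and the animal of each cell are not named in the sources used here. Each side is therefore 1 pool, and no p-value or standard error was made from its cells.

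RGCs are the output neurons of the retina, and in the mouse most of their axons cross at the optic chiasm while a ventrotemporal group stays on the same side. That uncrossed group is known for Zic2, the guidance receptor Ephb1 and the serotonin transporter Slc6a4, and crossed RGCs for Isl2 and Nrcam. Eomes acts in the formation and upkeep of RGC types that project outside the image-forming pathway, including the intrinsically photosensitive RGCs, which carry melanopsin (Opn4). Tbx20, another T-box factor, is known from some of those cells. Pnoc encodes the precursor of the neuropeptide nociceptin, and Igf1 encodes insulin-like growth factor 1.

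Cell titles carry a number from 1 to 10 in the Tomato+ group, called the title number here. The labels do not say what it stands for. Each title number held cells of both sides, with 4 to 17 Eomes-positive and 11 to 18 Eomes-absent cells, so the ratio between the sides was also taken inside each. The spread of those 10 values (SD over title numbers) is given beside a ratio. It is the scatter between small sets of cells and not the error of the pooled ratio. It covers a split of 1 pool and not a difference between animals. Levels are CPM, the summed counts of a side per 1000000 counts of its total, with exact Poisson intervals at 95%. Ratios are log2 of CPM plus a pseudocount of 10 CPM, Eomes-positive over Eomes-absent, which understates the differences of genes at low levels. Shares are the percent of cells with at least 5 counts, with exact Clopper-Pearson intervals at 95%. All intervals cover counting error only.

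The sides were close in depth and quality. Median total counts were 278286 per Eomes-positive and 270263 per Eomes-absent cell, with ranges from 16504 to 644293 and from 9653 to 533850. The median number of detected genes was 4699 against 4455, and the median mt- share 6.00% against 5.50%. Cells of both sides carried a median of 10 of the 12 RGC markers at 5 or more counts, and 98.3% and 97.9% of cells passed an RGC marker filter. The filter asks for at least 6 RGC markers and a larger share of them than of the markers of progenitors, neurogenic precursors, amacrine, horizontal or photoreceptor cells. Thy1 was the marker with the lowest share, at 1.71% and 4.26%. Markers of other cell classes were also counted. Horizontal cell markers, 7 in the table, had the largest sum, at 904 CPM (602 to 1340 over title numbers) and 1049 CPM (771 to 1241), with a median of 2 detected per cell on both sides. The 12 progenitor markers summed to 126.2 and 92.1 CPM, from 13 to 685 and from 10.8 to 603 CPM over title numbers. The 9 photoreceptor markers summed to 153.7 CPM (41.8 to 428) and 85.4 CPM (34.3 to 147.8), with 2 and 3 of them at 0. Erythroid markers reached 11.2 and 12.9 CPM and microglial markers 3.85 and 14.3 CPM. Amacrine markers summed to 697 CPM (551 to 932) and 772 CPM (595 to 983), with 4 of 12 at 0 on each side. The part of these other-class levels in the differences below was not tested.

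The interval of the Eomes-positive share of 36.6% was 31.3 to 42.1, and that of the Eomes-absent share of 44.1% was 38.5 to 49.7. The share of Eomes-positive cells ran from 16.7% (4 of 24 cells, title number 10) to 17 of 34 cells (title number 6) over title numbers, with a median of 37.9%. Eomes (chromosome 9, 118478212 to 118486132, plus strand, GENCODE M21 on GRCm38) stood at 556 CPM on the positive side. Single cells ranged from 15.8 to 3117 CPM with a median of 434 CPM, as the plot of single cells shows. The threshold parted cells that lay close together: 12 cells had 5 to 9 Eomes counts, just inside it, and the 62 cells just outside it had 1 to 4. Igf1 reached 5 counts in 41.7% (15.2 to 72.3) of the 12 and in 33.9% of the 62. It did so in 82.9% of the cells with 10 or more Eomes counts and 27% of the Eomes-absent cells. Synm, which encodes an intermediate filament protein, did so in 33.3%, 41.9%, 89.5% and 33.3% of the same sets. Chl1, an adhesion molecule gene, went the other way, with 66.7%, 24.2%, 68.6% and 29.1%.

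**Figure D1:**
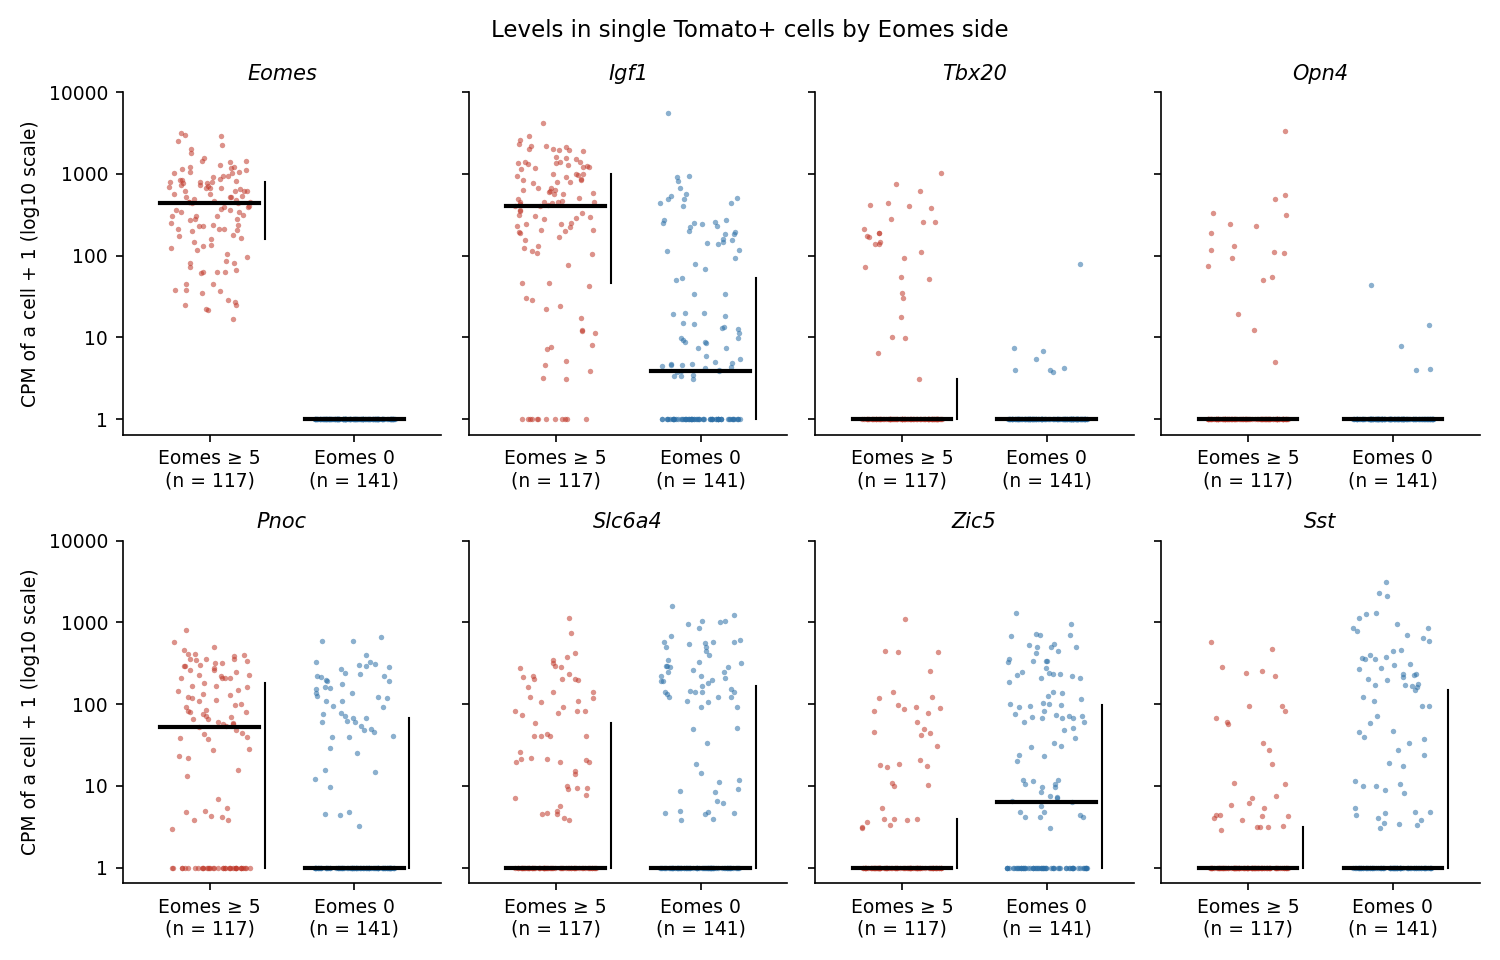
CPM of single Tomato+ cells (log10 axis of CPM + 1) for 8 genes, by Eomes side; each point is a cell, the horizontal line is the median and the vertical line runs from the lower to the upper quartile. Eomes itself chose the sides. Igf1 has a median of 408 CPM in Eomes-positive and 2.89 CPM in Eomes-absent cells. Opn4 and Tbx20 reach 5 counts in few cells and almost only on the Eomes-positive side. At any count, Tbx20 is in 30 Eomes-positive and 8 Eomes-absent cells, and Opn4 in 19 and 5. Zic5 and Sst reach high values in more of the Eomes-absent cells.

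The comparison took in 8378 other genes, each reaching 5 counts in 10% of the cells of either side or more. A 2-fold difference or more was seen for 1.71% of them. In number, 86 were higher in Eomes-positive cells (1.03%) and 57 were lower (0.68%). The median ratio over all compared genes was 0.00 and the median SD between title numbers was 1.01, about the size of a 2-fold difference. Of the 86 higher genes, 63 were higher in at least 8 of 10 title numbers, where 6.05% of all compared genes were. Of the 57 lower genes, 49 were lower in at least 8, where 6.78% of all compared genes were. Both counts come from the cells that chose the genes. Only 6 genes (0.0716% of those compared) had a CPM in every title number of the Eomes-positive side above that in every title number of the other side. These were Igf1, Mast4, Synm, Zeb2, Tle4 and Ank2, and 0 genes did so in the opposite direction (0%).

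Igf1 was higher in Eomes-positive cells. Its CPM over the 10 title numbers ran from 301.8 to 1125 with a median of 616 in Eomes-positive cells, and from 16.6 to 159.2 with a median of 76.7 in Eomes-absent cells. The title numbers of the sides did not overlap. Pooled levels were 619 CPM (610 to 627) against 79.6 CPM (76.7 to 82.5), a log2 ratio of 2.81 (SD 0.96, 10 title numbers). At least 5 counts of Igf1 were present in 78.6% (70.1 to 85.7) of Eomes-positive and 27% (19.8 to 35.1) of Eomes-absent cells, and in 74.8% against 21.6% after each cell was thinned to 112104 counts. Detection of Igf1 was not confined to the Eomes-positive side, since 38 Eomes-absent cells had at least 5 counts, and the highest single cell of all, at 5615 CPM, was 1 of them.

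Other genes of the insulin-like growth factor pathway were closer between the sides. Of 20 listed genes, 9 were compared, 1 was 2-fold higher (Igf1 itself, against 1.03% of all compared genes) and 0 were lower (against 0.68%). The median was 0.32. Igf1r, the receptor for the factor, was detected in 85.5% of Eomes-positive and 75.2% of Eomes-absent cells at 220 against 174.05 CPM, a ratio of 0.32. Igfbp4, an IGF-binding protein, stood at 46.8 against 20.8 CPM (0.88). Igfbpl1, a relative of the binding proteins, stood at 170 against 311.2 CPM (-0.83) and was lower in 9 of 10 title numbers.

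Tbx20 was higher in Eomes-positive cells but detected in a minority of them. Its CPM ran from 3.25 to 315.7 over the title numbers of Eomes-positive cells, with a median of 56.5, and from 0 to 5.06 over those of Eomes-absent cells. All 10 title numbers were higher in Eomes-positive cells, with an overlap at the low end. Pooled levels were 56.7 against 0.577 CPM, a ratio of 2.66 (SD 1.19). At least 5 counts were seen in 25 cells (21.4%, 14.3 to 29.9) against 1 cell (0.709%, 0.0180 to 3.89). The 5 highest cells carried 53.2% of the Tbx20 counts of the Eomes-positive side.

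Opn4, which encodes the photopigment melanopsin, was likewise detected in a minority of cells. Its CPM ran from 0 to 65.4 over title numbers with a median of 24.7 in Eomes-positive cells and from 0 to 4.34 in Eomes-absent cells, of which 8 title numbers stood at 0. Pooled levels were 31.1 CPM (29.2 to 33.1) against 0.412 CPM (0.231 to 0.680), a ratio of 1.98 (SD 1.08), higher in 9 title numbers and tied at 0 in the remaining one. Opn4 reached 5 counts in 17 cells (14.5%, 8.70 to 22.2) against 1 cell (0.709%). The 5 highest cells carried 64.6% of the Opn4 counts of the Eomes-positive side, so its pooled level rests on few cells.

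The list of Eomes or melanopsin RGC genes held 10 genes besides Eomes. Of these, 5 were compared, 3 were 2-fold higher (Tbx20, Opn4 and Irx1) and 0 were lower, with a median of 1.41. These 3 passed the filter on low counts only through the Eomes-positive side, where they are high, which favours a difference. Their count is therefore not read against the 1.03% of all compared genes. Irx1, an Iroquois homeobox factor, stood at 36.7 against 7.61 CPM (1.41, higher in 8 title numbers). The members that did not differ 2-fold were Adcyap1, the gene of the neuropeptide PACAP, at 28.4 against 21.2 CPM (0.30), and Plcb4, a phospholipase of the melanopsin cascade, at 87.3 against 124.2 CPM (-0.46). Trpc7, a channel subunit of that cascade, was below the filter and reached 5 counts in 5.13% of Eomes-positive cells. The list was written with earlier results of these data known. Among 14 T-box factors besides Eomes, 3 were compared and only Tbx20 was 2-fold higher. Tbx2 stood at 27 against 32.8 CPM (-0.21) and Tbr1, a close relative of Eomes, was at 0.245 against 0.302 CPM.

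The windows around the start sites of Igf1, Tbx20 and Opn4 are shown because these 3 genes were higher in Eomes-positive cells and T-box factors bind a core motif, GTGTGA, which was searched on both strands. The windows run from 250 bases before to 50 bases after the start (RefSeq, GRCm38.p6). Igf1 lies at chr10:87860861-87861160 on the plus strand, Tbx20 at chr9:24774254-24774553 on the minus strand and Opn4 at chr14:34600093-34600392 on the minus strand. They are printed 5′ to 3′ in the direction of the gene, with any match of the motif in capitals.
Igf1: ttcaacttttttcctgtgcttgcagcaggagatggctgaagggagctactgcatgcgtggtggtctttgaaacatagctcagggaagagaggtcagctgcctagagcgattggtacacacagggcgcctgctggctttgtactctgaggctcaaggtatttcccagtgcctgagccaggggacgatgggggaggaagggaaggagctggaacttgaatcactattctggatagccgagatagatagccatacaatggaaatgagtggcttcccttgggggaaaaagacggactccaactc
Tbx20: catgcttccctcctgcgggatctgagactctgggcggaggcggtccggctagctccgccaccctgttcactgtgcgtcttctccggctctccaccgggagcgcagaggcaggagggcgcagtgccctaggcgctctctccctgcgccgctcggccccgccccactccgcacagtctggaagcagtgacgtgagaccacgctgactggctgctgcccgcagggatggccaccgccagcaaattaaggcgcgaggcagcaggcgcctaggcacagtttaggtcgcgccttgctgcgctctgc
Opn4: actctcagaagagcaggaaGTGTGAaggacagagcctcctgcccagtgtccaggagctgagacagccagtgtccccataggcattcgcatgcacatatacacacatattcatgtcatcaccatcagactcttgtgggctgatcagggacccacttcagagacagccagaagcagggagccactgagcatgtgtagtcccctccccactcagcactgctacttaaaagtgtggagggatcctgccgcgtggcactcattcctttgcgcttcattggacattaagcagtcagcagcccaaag
The Opn4 window held 1 match, near the upstream end of the window, and the windows of Igf1 and Tbx20 held 0. The motif was present in 14.5% of the 32851 windows in the RefSeq table and in 10.6% of the windows of compared genes. It was present in 8.14% of the windows of the genes 2-fold higher in Eomes-positive cells and in 11.1% of those of the lower genes. Windows were found for 61 of the 86 higher and 44 of the 57 lower genes, some with several starts. A match describes letters in the window and is no binding site.

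The largest ratio among the genes named by rank was that of Mast4, a microtubule-associated kinase, on chromosome 13 (102732486 to 103334497, minus strand). Its CPM ran from 153.7 to 368.5 over title numbers in Eomes-positive cells and from 11.4 to 59.6 in Eomes-absent cells, without overlap. Pooled levels were 273.8 against 29 CPM (2.86, SD 0.77), and 76.1% against 20.6% of cells reached 5 counts. Synm stood at 485 against 70.4 CPM (2.62, SD 0.64) and 83.8% against 33.3% of cells. Its title numbers ran from 290 to 759 and from 46 to 175.6 CPM, again without overlap.

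Transcriptional regulators were found in both directions. Zeb2, a zinc finger homeobox repressor, stood at 122.9 against 14.5 CPM (2.44, SD 0.93), with 46.5 CPM in its lowest Eomes-positive title number and 34.4 CPM in its highest Eomes-absent one. Tle4, a Groucho family corepressor, stood at 584 against 145.6 CPM (1.93, SD 0.92) and reached 5 counts in 93.2% against 56% of cells. Foxo1, a forkhead factor held back by insulin and IGF signalling, stood at 54.7 against 8.57 CPM (1.80, SD 1.37), and Klf6, a zinc finger factor, at 66.9 against 14.2 CPM (1.67, SD 1.31). Of the 58 listed RGC transcription factors, 42 were compared. Of these, 4 were 2-fold higher (Zeb2, Irx1, Irx6 and Ebf2, against 1.03% of all compared genes) and 6 were 2-fold lower (against 0.68%). Irx1 passed the filter on low counts only through the Eomes-positive side, and Isl2, Tfap2d and Pou4f3 only through the Eomes-absent side. Of the 42, 37 reached the filter on the Eomes-positive side and 36 on the Eomes-absent side, so others were one-sided too. These counts are therefore not read against those shares. The median of the list was -0.08.

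The 6 lower factors were Isl2, Tfap2d, Pou4f3, Lmo1, Pou4f1 and Onecut3. Pou4f1 (Brn3a), a POU factor of most RGC types, ran from 0.812 to 120 CPM over title numbers in Eomes-positive cells and from 70.7 to 221.3 in Eomes-absent cells. It was lower in Eomes-positive cells in 10 of 10 title numbers, with overlap, at 68 against 159.2 CPM pooled (-1.12, SD 0.82). Its share of cells was 43.6% (34.4 to 53.1) against 56.7% (48.1 to 65). Pou4f2 (Brn3b), the early RGC factor of the same family, was at 135.8 against 114.3 CPM (0.23) and went the other way in 6 of 10 title numbers. Isl2, a LIM homeobox factor of crossed RGCs, stood at 4.22 against 47.9 CPM (-2.03, SD 1.43), but reached 5 counts in only 4.27% and 12.8% of cells. Tfap2d, an AP-2 factor, stood at 8.81 against 65.1 CPM (-2.0, SD 1.81), and its 5 highest cells held 99% of its counts on the Eomes-positive side. Both are thus differences in a small share of cells.

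**Figure D2:**
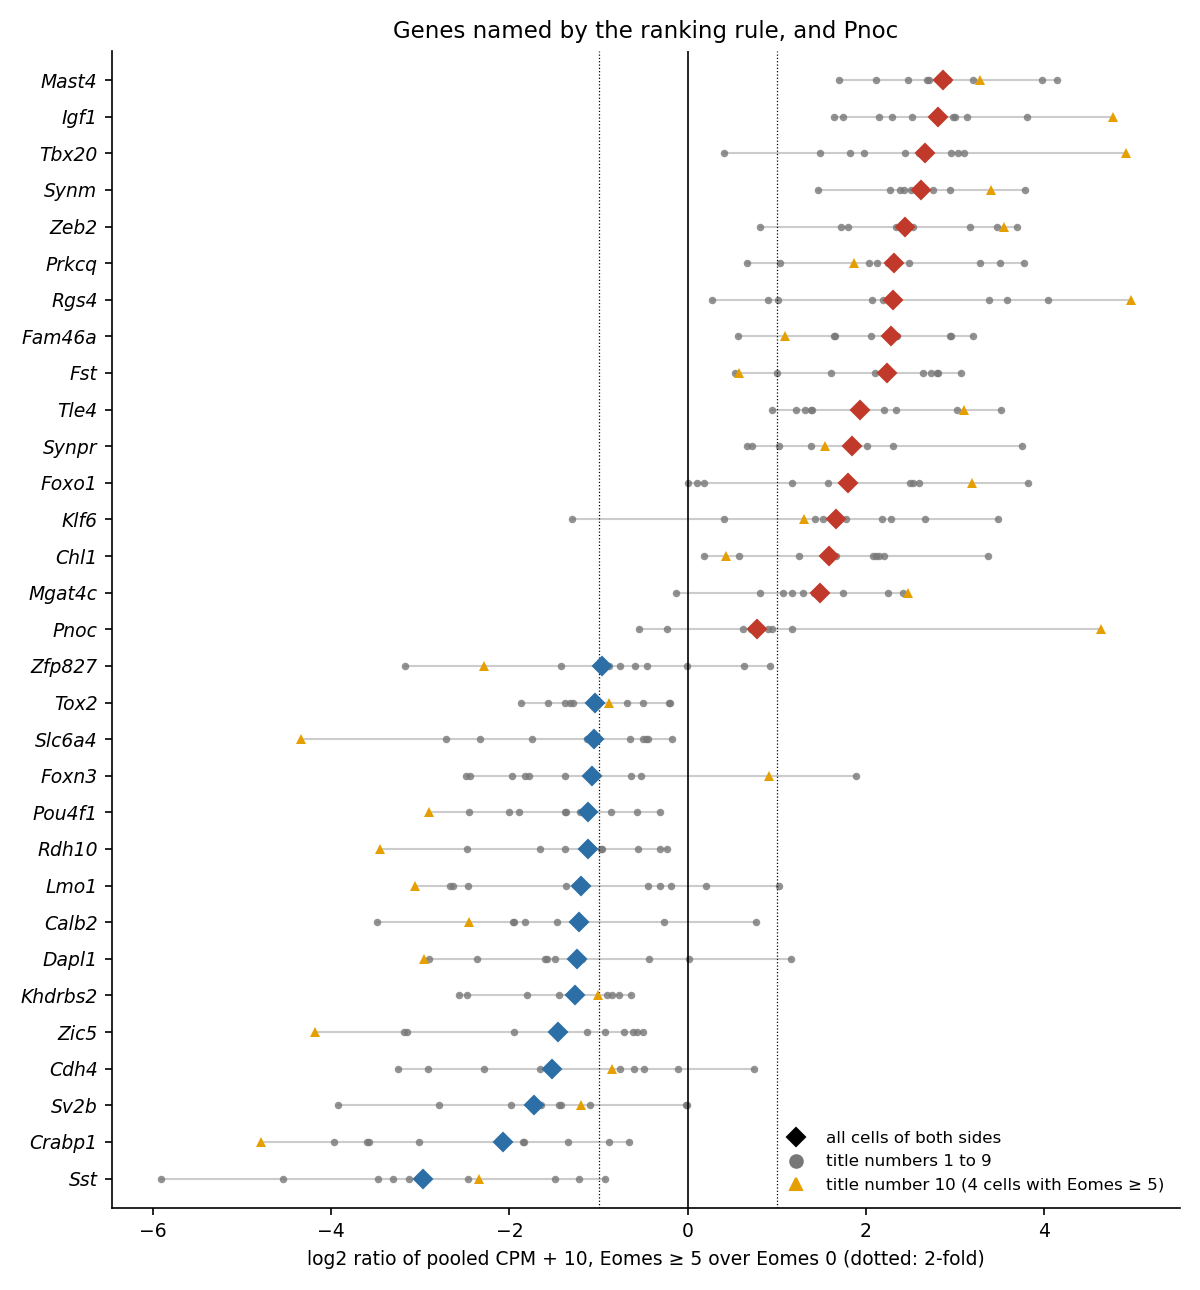
Log2 ratio of Eomes-positive over Eomes-absent cells (pseudocount 10 CPM) for the 15 highest and 15 lowest genes of the ranking rule and for Pnoc; diamonds give the pooled ratio, points the ratio inside title numbers 1 to 9 and triangles title number 10, with 4 Eomes-positive cells. Mast4 and Synm keep a positive ratio in all 10 title numbers, Pnoc runs from -0.55 to 4.64 and most of the lower genes spread over more than 2 log2 units.

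Signalling and membrane genes completed the higher end of the ranking. Prkcq, a protein kinase C isoform, stood at 67.6 against 5.63 CPM (2.31, SD 1.01). Rgs4, which speeds the shut-off of G protein signals, stood at 297.2 against 52.3 CPM (2.3, SD 1.51) and reached 5 counts in 52.1% against 16.3% of cells. Fst, the gene of the activin antagonist follistatin, stood at 42 against 1.04 CPM (2.24, SD 0.98), in 27.4% against 1.42% of cells. Synpr, a synaptic vesicle protein, was at 64.1 against 10.7 CPM (1.84, SD 0.90), and Chl1, an L1 family adhesion molecule of growing axons, at 287.2 against 88.8 CPM (1.59, SD 0.99). Fam46a (2.28) and Mgat4c, a glycosyltransferase gene (1.49), filled the remaining places. Of these 15 genes, 13 were higher in all 10 title numbers or tied in the rest, and Klf6 and Mgat4c in 9.

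Of 4 listed opioid and nociceptin receptors, 2 were compared and only Oprm1 was 2-fold higher (1.03% of all compared genes were). The ligand gene Pnoc was under 2-fold. Pnoc ran from 45.4 to 347.3 CPM over title numbers in Eomes-positive cells with a median of 130, and from 4.35 to 132.2 with a median of 73.4 in Eomes-absent cells. The ranges overlapped widely. Pooled levels were 128.2 CPM (124.3 to 132.1) against 70.3 CPM (67.6 to 73.1), a ratio of 0.78 that was smaller than its SD of 1.39 and under 2-fold. The ratio was positive in 8 of 10 title numbers, and was 0.60 without title number 10, where it was 4.64. The share of cells with 5 counts was 56.4% (46.9 to 65.6) against 34% (26.3 to 42.5), and 54.2% against 32% after thinning. Oprm1, the mu opioid receptor, was at 29.6 against 2.42 CPM (1.67, SD 1.19) and reached 5 counts in 15.4% against 2.13% of cells. It passed the filter on low counts only through the Eomes-positive side, so its count is not read against the 1.03%. Oprl1, the receptor for nociceptin, stood at 32.6 against 31.2 CPM (0.05), and Oprd1 and Oprk1 had 0 counts on both sides.

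Among 32 listed neuropeptide and processing genes, 15 were compared, 1 was 2-fold higher (1.03% of all compared genes) and 1 was lower (0.68%). The lower one was Sst, which encodes somatostatin and had the lowest ratio of all compared genes. Its CPM ran from 0 to 50.9 over title numbers with a median of 10.1 in Eomes-positive cells, and from 23.7 to 592 with a median of 132.8 in Eomes-absent cells. All 10 title numbers were lower in Eomes-positive cells, with some overlap between numbers. Pooled levels were 16 CPM (14.7 to 17.5) against 192.98 CPM (188.5 to 197.5), a ratio of -2.96 (SD 1.55), and shares of cells were 12.0% (6.70 to 19.3) against 34.8% (26.9 to 43.2). The 5 highest cells carried 63.7% of the Sst counts of the Eomes-positive side and 54.4% of those of the Eomes-absent side. The higher one was Scg2, a granin of dense-core vesicles, at 27.6 against 6.68 CPM (1.17), with 97.9% of its Eomes-absent counts in 5 cells. Scg2 passed the filter on low counts only through the Eomes-positive side, so its count is not read against the 1.03%. Tac1, the gene of substance P, was detected in 28.2% and 28.4% of cells, at 55.2 against 79.3 CPM.

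Genes known from the uncrossed pathway were mostly lower in Eomes-positive cells, and Igf1 was the only compared member with a ratio above 0. Of 7 listed, 5 were compared, 1 was 2-fold higher (Igf1, against 1.03% of all compared genes) and 2 were 2-fold lower (Zic5 and Slc6a4, against 0.68%), with a median of -0.99. Zic5, a zinc finger factor of the family of Zic2, ran from 2.24 to 134.8 CPM over title numbers in Eomes-positive cells and from 24.4 to 230 in Eomes-absent cells. It was lower in 10 of 10 title numbers, at 32 against 105.4 CPM pooled (-1.46, SD 1.35), and in 19.7% (12.9 to 28) against 39% (30.9 to 47.6) of cells. Zic2 itself was below the filter, with 5 counts in 1.71% and 5.67% of cells. Ephb1 stood at 97.2 against 203.3 CPM (-0.99, SD 1.22), lower in 9 of 10 title numbers, while its share of cells was nearly equal at 58.1% and 58.9%.

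Slc6a4, whose regulatory sequence drives the Cre, differed in level more than in the share of cells. Its CPM over title numbers ran from 0 to 151.5 with a median of 50.8 in Eomes-positive cells and from 66 to 213.1 with a median of 155.6 in Eomes-absent cells. Eomes-positive cells were lower in all 10 title numbers, and the ranges overlapped. Pooled levels were 66.9 CPM (64.1 to 69.7) against 150 CPM (145.6 to 153.5), a ratio of -1.05 (SD 1.33). At 5 or more counts, Slc6a4 was detected in 35.9% (27.2 to 45.3) and 36.9% (28.9 to 45.4) of cells, and in 27.1% and 40.0% after thinning. The cells that had it held a median of 107.05 and 254.1 CPM. The ratio came to -0.92, -0.93, -0.97 and -0.98 without title number 3, 4, 5 or 10, each just under 2-fold. Of the 10 listed serotonin genes, 4 were compared and only Slc6a4 was 2-fold lower (0.68% of all compared genes were). Slc18a2, the vesicular monoamine transporter, was in 83.8% and 82.3% of cells at 233.5 against 382.3 CPM (-0.69) and was lower in 9 of 10 title numbers. Tph2, which makes serotonin in neurons, was near 0 at 3.0 and 2.97 CPM.

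Genes known from crossed RGCs also included lower members. Of 6 listed, all 6 were compared, 0 were 2-fold higher and 2 were 2-fold lower (Isl2 and Pou4f1, against 0.68% of all compared genes). The median was -0.79. Isl2 passed the filter on low counts only through the Eomes-absent side, so this count is not read against that share. Nrcam, a cell adhesion molecule of the midline crossing, stood at 251.5 against 204.3 CPM (0.29). Nrp1, a receptor for VEGF-A and semaphorins, stood at 140.5 against 270 CPM (-0.90) and was lower in 8 of 10 title numbers.

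Crabp1, a cytoplasmic retinoic acid-binding protein, came next after Sst among the lowest ratios. It ran from 35.7 to 1261 CPM over title numbers in Eomes-positive cells and from 965 to 4649 CPM in Eomes-absent cells. The 10 ratios were all below 0 and the ranges overlapped at title number 7, with 1261 CPM, and title number 8, with 973 CPM. Pooled levels were 432 against 1851 CPM (-2.07, SD 1.42). Its share of cells was 55.6% (46.1 to 64.7) against 68.1% (59.7 to 75.7), and 42.1% against 66.4% after thinning, and 5 cells carried 59.5% of the Crabp1 counts of the Eomes-positive side. Of 18 retinoid genes, 7 were compared, 0 were 2-fold higher and 2 were lower (0.68% of all compared genes were). The second was Rdh10, a retinol dehydrogenase in the synthesis of retinoic acid, at 40.3 against 99.2 CPM (-1.12, lower in 10 of 10 title numbers).

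The remaining genes of the lower end were Sv2b, a synaptic vesicle glycoprotein (13.7 against 68.2 CPM, -1.72), Cdh4, a classical cadherin (25.2 against 91.1 CPM, -1.52), and Khdrbs2, an RNA-binding splicing regulator (61.8 against 161.9 CPM, -1.26). Calb2, the gene of the calcium-binding protein calretinin, stood at 19 against 57.6 CPM (-1.22) in 12.8% against 29.1% of cells. Tox2, an HMG-box factor, stood at 115.1 against 246.6 CPM (-1.04) and was lower in all 10 title numbers. Dapl1 (-1.25), Lmo1 (-1.20), Foxn3 (-1.07) and Zfp827 (-0.97) were lower in 8 of 10. Without 1 title number, Lmo1 (number 10, -0.97), Calb2 (number 9, -0.95) and Rdh10 (number 3, -0.96) came to just under 2-fold.

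The remaining lists are set beside the 1.03% of all compared genes that were 2-fold higher and the 0.68% that were lower. Some had members past 2-fold and others 0. Some members passed the filter on low counts through 1 side only, which favours a difference. Of 43 adhesion genes, 29 were compared, 3 were 2-fold higher (Chl1, Pcdh19 and Flrt2) and 2 were lower (Cdh4 and Pcdh10), with a median of -0.12. Of 14 compared axon guidance receptors, 1 was lower (Dcc, the netrin receptor, at 9.18 against 32.1 CPM). Of 11 compared Eph and ephrin genes, 18 ion channel genes, 14 axon growth and cytoskeleton genes and 11 genes of retinal position, 0 differed 2-fold. Of 16 compared transmitter receptors, 0 were higher and 2 were lower: Chrnb4, a nicotinic receptor subunit, at 3.61 against 25.7 CPM (-1.39), and the kainate receptor gene Grik2 at -1.0. Of 22 compared synaptic release genes, Syn2 was higher (1.22) and Sv2b was lower. The cell cycle, immediate early and glycolysis and hypoxia lists had 0 members past 2-fold, with medians of -0.18, 0.19 and 0.18.

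The genes are next described by the amount of Eomes within the Eomes-positive side. Since Eomes also chose the sides on which these genes differ, an order along its level is partly set by that choice and supports nothing further. The side was split into 3 classes of 39 cells each by Eomes CPM (15.8 to 229.1, 230.8 to 667 and 676 to 3117 CPM), whose median totals were 270138, 303712 and 270385 counts. Tbx20 reached 5 counts in 7.69%, 17.9% and 38.5% of the cells from the lowest to the highest class. Opn4 did so in 5.13%, 15.4% and 23.1%, and Igf1 in 64.1%, 84.6% and 87.2%. Slc6a4 had the opposite order, with 53.8%, 41% and 12.8%. So did Zic5 (30.8%, 20.5% and 7.69%), Pou4f1 (53.8%, 48.7% and 28.2%) and Sst (23.1%, 10.3% and 2.56%). For Slc6a4 this order did not go on below the threshold, with 38.7% of cells with 1 to 4 Eomes counts and 36.9% of Eomes-absent cells. In those 2 sets Zic5 was in 22.6% and 39%, Pou4f1 in 46.8% and 56.7% and Sst in 17.7% and 34.8%. Pnoc showed little of either trend, with 59%, 59% and 51.3%. In the lowest class, Slc6a4 stood at 127.3 CPM and Ephb1 at 155.8 CPM, against 13.1 and 70.03 CPM in the highest. Other genes that were higher on the Eomes-positive side showed no order, such as Zeb2 (43.6%, 35.9% and 53.8%), Chl1 (66.7%, 59% and 79.5%) and Irx1 (20.5%, 35.9% and 30.8%).

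**Figure D3:**
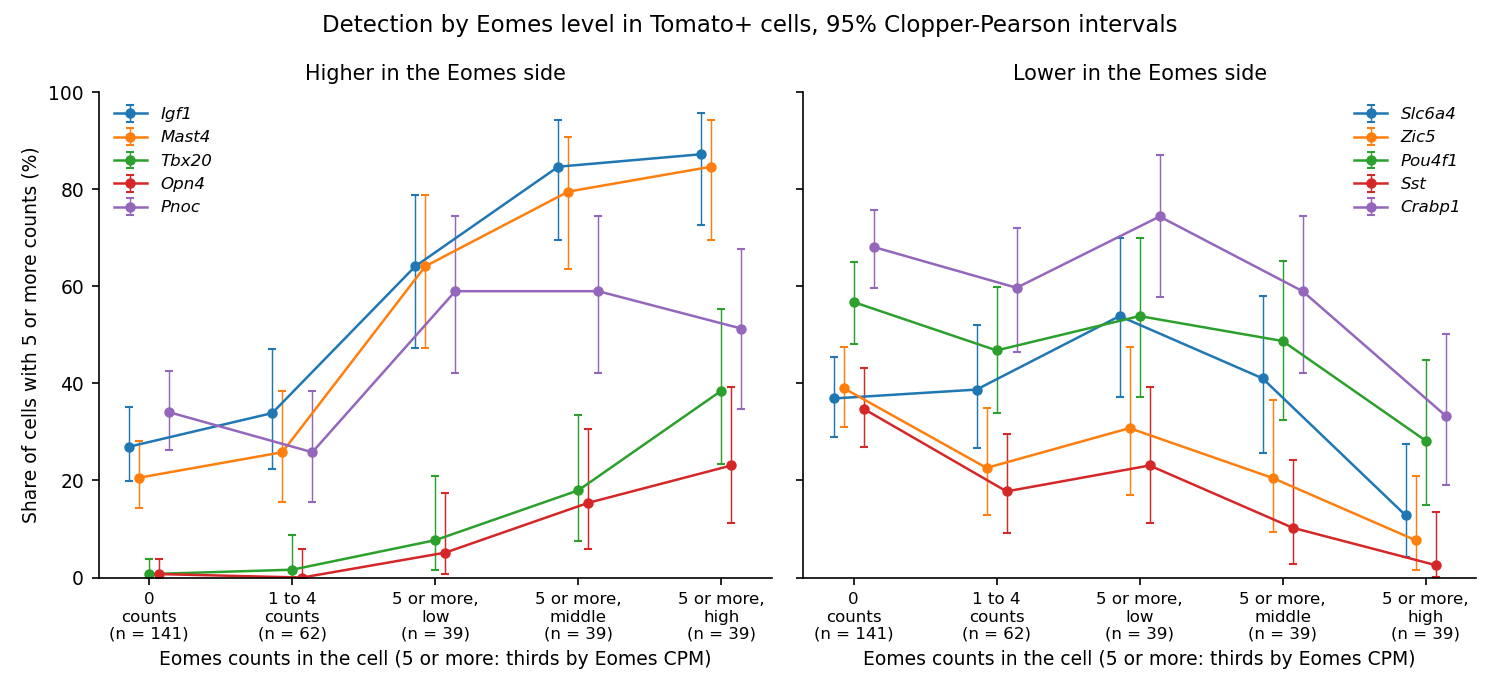
Share of Tomato+ cells with 5 or more counts of a gene (percent, with exact 95% Clopper-Pearson intervals) by Eomes level, for the Eomes-absent cells, the left-out cells with 1 to 4 counts and the 3 classes of the Eomes-positive cells. In the highest class Tbx20 is in 38.5% and Opn4 in 23.1% of cells, Slc6a4 in 12.8% and Sst in 2.56%; lines join the classes of 1 gene.

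Some of these genes were detected in the same Eomes-positive cells and others mostly in different ones. Of the 25 cells with 5 counts of Tbx20, all 25 also had Igf1, 23 had Mast4 and 12 had Opn4. Of the 17 Opn4 cells, 12 had Tbx20 (70.6%), against 13 of the 100 other Eomes-positive cells. Pnoc was in 3 of the 17 Opn4 cells (17.6%) and in 63 of the 100 without Opn4, and Ephb1 in 3 of 17 (17.6%) and 65 of 100. Igf1 was in 80.3% of the 66 Pnoc cells and 76.5% of the 51 others. Slc6a4 cells stood out by other genes: of 42, Ephb1 was in 78.6%, Pou4f1 in 59.5%, Tac1 in 42.9% and Zic5 in 35.7%. In the 75 Eomes-positive cells without Slc6a4 these shares were 46.7%, 34.7%, 15 of 75 and 10.7%. On the Eomes-absent side the 52 Slc6a4 cells had Ephb1 in 76.9%, Pou4f1 in 59.6%, Tac1 in 42.3% and Zic5 in 67.3%, against 48.3%, 55.1%, 20.2% and 22.5% of the 89 others. Both sides thus held cells with detected Slc6a4, Ephb1 and Zic5.

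**Figure D4:**
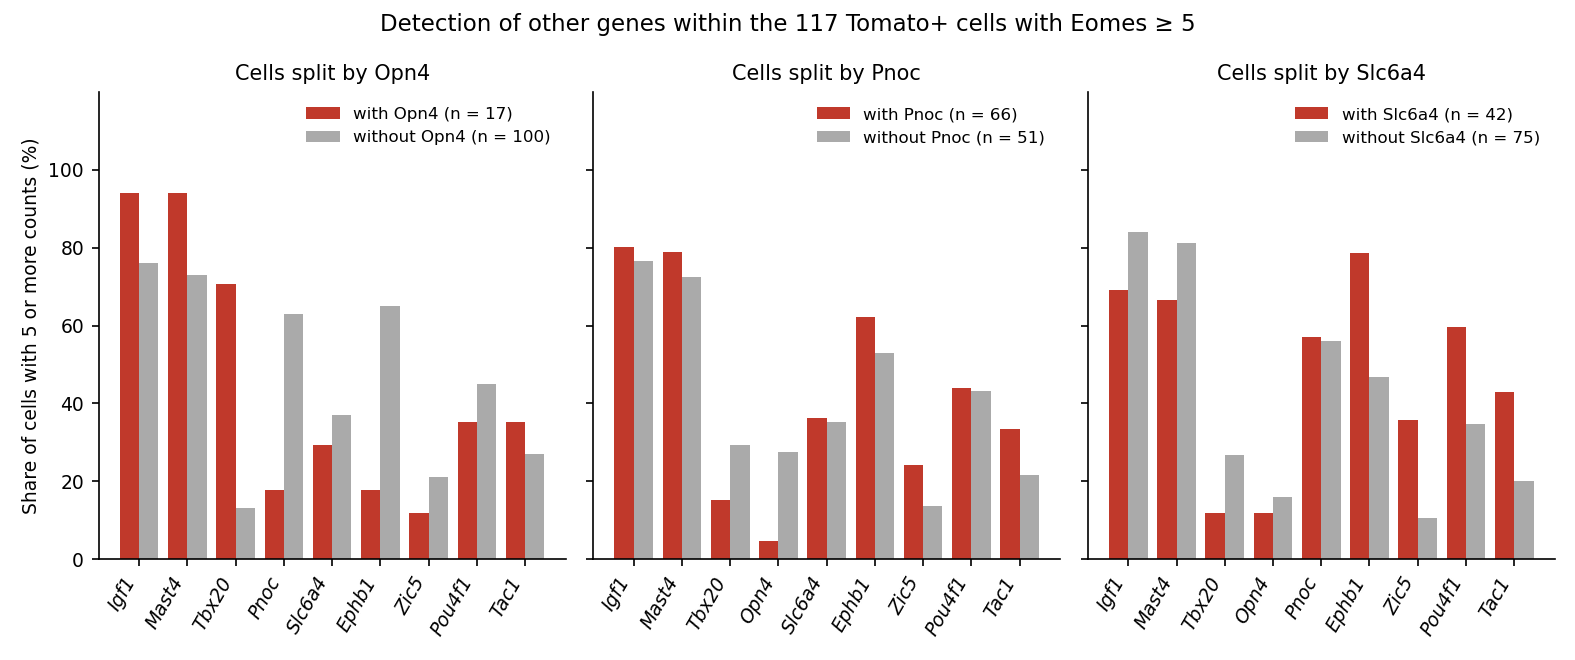
Share of the Eomes-positive cells with 5 or more counts of each gene (percent), in cells with (red) and without (grey) 5 or more counts of Opn4, Pnoc or Slc6a4. Tbx20 is in 70.6% of Opn4 cells against 13% of the others, Pnoc in 17.6% against 63%, and Ephb1 in 78.6% of Slc6a4 cells against 46.7%.

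The same split was made among Tomato- cells, which share no cell with the comparison above. Tomato- cells include progenitors, so the same quality limits and the RGC marker filter were applied. Of the cells left, 17 had 5 or more Eomes counts (11.4%, 6.79 to 17.6), 20 with 1 to 4 counts were left out and the rest had 0. RGC markers still differed between these sides, with Rbpms in all 17 Eomes-positive and 62.5% of Eomes-absent cells, Slc17a6 in 70.6% and 49.1%, and Sncg at a median of 6138 and 2435 CPM. Both sides carried a median of 2 progenitor markers, and 1 of the 17 Eomes-positive and 10 of the Eomes-absent cells carried 6 or more. The part of these differences in the ratios was not tested. There, 1693 of 9077 compared genes were past 2-fold (18.7%), of which 791 were higher (8.71%) and 902 lower (9.94%) in Eomes-positive cells. Of the 86 genes 2-fold higher in Eomes-positive Tomato+ cells, 58 had a ratio above 0 in the Tomato- cells (67.4%, against 45.7% of the genes compared in Tomato+ cells). The ratio was 2-fold higher for 32 of them (37.2%, against 6.89%). Of the 57 lower genes, 45 had a ratio below 0 (78.9%, against 54.3%) and 19 were 2-fold lower (33.3%, against 10.9%). In the opposite direction, 9 of the 86 higher genes were 2-fold lower in the Tomato- cells (10.47%, against 10.9%). Of the 57 lower genes, 3 were 2-fold higher there (5.26%, against 6.89%).

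Igf1 stood at 563 CPM in Eomes-positive and 40.0 CPM in Eomes-absent Tomato- cells (3.52), in 70.6% (44 to 89.7) against 10.7% (5.66 to 18) of cells. Tbx20 was in 4 of 17 and in 2 cells at 72.8 against 5.49 CPM (2.42). Synm (3.22), Synpr (3.54), Mast4 (1.79) and Chl1 (1.74) were also past 2-fold, and Pnoc had a ratio of 1.55 with 66.9 against 16.3 CPM. Opn4 was at 12.6 against 0.119 CPM, with 2 of 17 cells at 5 counts. On the lower side, Crabp1 was at 70.3 against 506 CPM (-2.68), Sst at 0.323 against 54.3 CPM (-2.64) and Lmo1 at 0.647 against 66.1 CPM (-2.84). Other genes did not follow the Tomato+ ratio. Irx1 was at 1.94 against 2.34 CPM and Zeb2 at 114.8 against 91.3 CPM (0.30). Ephb1 was higher in Eomes-positive Tomato- cells, at 86.2 against 18.8 CPM (1.74). Mgat4c (-0.74) and Calb2 (0.51) had the opposite sign, and Tox2 (0.00) and Foxn3 (0.02) lay near 0. Slc6a4 was near 0 on both sides of the Tomato- cells, at 0.485 and 0.801 CPM. Whether the ratios differ between the Tomato+ and Tomato- cells was not tested.

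**Figure D5:**
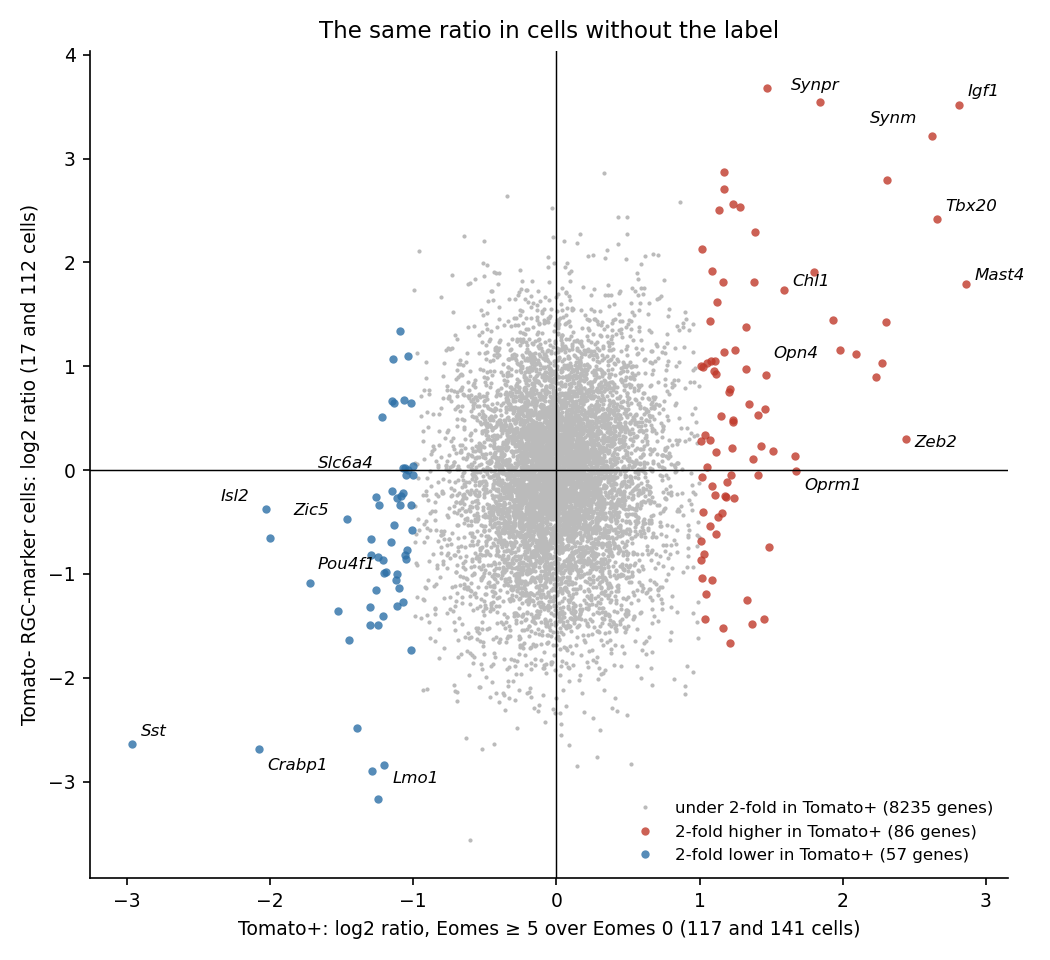
Log2 ratio of Eomes-positive over Eomes-absent cells in Tomato+ cells (horizontal axis) and in Tomato- RGC-marker cells (vertical axis, 17 Eomes-positive cells); each point is a compared gene, red and blue where it is 2-fold higher or lower in Tomato+ cells. Igf1, Tbx20 and Synm lie at the upper right, Sst and Crabp1 at the lower left, and Slc6a4 lies near 0 on the vertical axis.

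Some named genes share their locus with others. Of 31 named genes matched to 1 GENCODE gene, 16 overlap a gene on the opposite strand. Whether the counting used strand is not given in the sources used here, so reads of such pairs may have been counted together. Levels are compared between sides for 1 gene at a time and not between genes, since the counts are not scaled by transcript length.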

How the data were processed

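The authors deposited 1 table of counts per gene and cell, whole numbers that were not normalised; whether they are molecules or reads is not stated. Per the submitters' processing notes, Seurat 2.3, R 3.4.4 and mm10 were used; aligner and annotation are not given in the sources used here. The table has 49585 gene rows, and 1 column could not be tied to a sample and was left aside. There were 0 identical cell columns, and no doublet caller was run.

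The Eomes-positive side held 117 cells and the Eomes-absent side 141; among Tomato- cells, 149 passed the RGC marker filter and the sides held 17 and 112. Counts were summed per side and scaled to CPM in Python 3.11.15 (numpy 2.4.6, pandas 2.3.3, scipy 1.17.1). Cells were thinned to 112104 counts, which left out 10 Eomes-positive and 16 Eomes-absent cells. Scaling factors came from edgeR 4.0.16 and DESeq2 1.42.0. The scripts were tested on simulated data.

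Members, gene lists and rules were chosen with earlier results of these data known. Named genes are Eomes, Pnoc and Igf1, and the 15 highest and 15 lowest ratios with 5 counts in 20% of cells, a thinned share differing by 10 points and the same sign in 8 title numbers. Predicted, mitochondrial and repeated symbols were passed over. List members past 2-fold are named too, or else up to 2 of the largest ratios. Other named members were chosen after their values were seen.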

Additional observations from a re-analysis of the deposited data

Results flagged for a closer look

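Ratios between the Eomes sides were examined over the 10 title numbers for 63 genes, lists and shares, and a value was marked where its gap to the nearest of the others took up an unusual part of the range by Dixon's ratio. Chance marks about 1 in 20 such sets at each look, and 11 values were marked here. Of them, 9 lay in title number 10, which held 4 Eomes-positive and 11 Eomes-absent cells.

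In title number 10 the log2 ratio of Pnoc was 4.64, the next highest being 1.17, and that of Ephb1 was -4.25, the next lowest being -1.77. Medians of lists set apart there were those of the RGC markers (-0.62), the RGC transcription factors (-1.09), the ipsilateral list (-4.18), the serotonin list (-3.05), the adhesion genes (-0.84), the calcium-binding proteins (0.76) and the secreted signals (-0.96). Outside title number 10, Synpr had a ratio of 3.75 in title number 9, the next highest being 2.31. The median of the IGF pathway list was 0.96 in title number 5, the next highest being 0.34.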

How the results depend on the processing

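The number of genes past 2-fold depended on the pseudocount. The 86 higher and 57 lower genes with 10 CPM became 512 genes with 1 CPM and 11 with 50 CPM (9 higher and 2 lower). With each cell weighted equally there were 260 (130 and 130), with 67 of the 86 and 42 of the 57 kept. With the positive side from 1 Eomes count there were 70 (49 and 21), and that side then held 55.9% of cells instead of 36.6%. In the Tomato- cells, the count of 1693 became 2821 with 1 CPM and 170 with 50 CPM. Leaving out each title number in turn kept the total within 1.5 times, though without title number 5 the lower genes were 93 instead of 57. Each of these runs kept 71 to 77 of the 86 higher and 43 to 52 of the 57 lower genes. They gave a log2 ratio of 2.65 to 2.93 for Igf1 and 0.60 to 0.94 for Pnoc. Over the other settings tried, Igf1 ran from 2.32 to 3.0 and Pnoc from 0.57 to 0.90. Of 1440 values of other genes and list medians over settings, 1423 moved by less than the SD between title numbers and 17 by more. A change of sign was counted only for ratios of 2-fold or more, and 0 were found. Smaller ratios, most list medians among them, could not be counted as reversed. The setting without a filter on low counts changes no ratio by its design. No paired analysis was possible because no label ties cells of both sides to an animal and replicate numbers only name cells; ratios inside title numbers are given in its place. The number of cells limits the values for genes seen in few of them, such as Opn4, and those of the 17 Tomato- cells.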
